A study of Mus musculus with 10 samples.

Results

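Colonic cells carrying the integrin CD11b were compared with colonic cells carrying the integrin CD11c. The comparison used 4 of the 10 libraries of the series, chosen by the population named in the library titles, with 2 libraries of CD11b+ cells and 2 of CD11c+ cells. Both groups, like the rest of the series, came from wild-type C57BL/6 mice aged 8 weeks, with no treatment named, and RNA was taken from about 20000 to 50000 cells per library. The source label for these populations reads only dendritic cells or mononuclear phagocytes, and the colon is named in the title of the series. One other colonic population, CD11b+CD11c+ cells with 2 libraries, shared the estimate of the spread between libraries, and its levels are given where they help to place the others. Nothing in the labels says whether a library came from 1 mouse or from pooled mice, or whether different mice gave the 2 libraries of a population. The p-values therefore reflect only how much the libraries differed, which may be a technical spread. Levels are CPM, the count of a gene relative to the scaled total of its library (TMM scaling). Every log2 fold change is CD11b+ minus CD11c+, every adjusted p is from the quasi-likelihood test of edgeR over all 14225 genes tested, and a gene is called higher or lower, always in CD11b+ relative to CD11c+ cells, at an adjusted p under 0.05.

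The gut wall holds macrophages, which take up debris and microbes and are renewed from blood monocytes, and conventional dendritic cells, which carry antigen to lymph nodes and prime T cells. Conventional dendritic cells of type 1 (cDC1) need the transcription factors IRF8 and BATF3, take up dying cells and present their antigens to CD8 T cells, while type 2 cells (cDC2) mainly serve CD4 T cells. CD11b, paired with the beta 2 integrin chain, is the complement receptor of macrophages, monocytes, granulocytes and cDC2. CD11c pairs with the same chain and is carried by dendritic cells and by many intestinal macrophages, and CD103, the product of Itgae, marks most intestinal cDC1 and binds E-cadherin of the epithelium.

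Itgam, which encodes CD11b (ENSMUSG00000030786.18, chromosome 7, 128062640 to 128118491, + strand, build mm10), stood at 742 and 743 CPM in the CD11b+ libraries against 25.9 and 40.5 CPM in the CD11c+ libraries. The CD11b+ libraries were far above the CD11c+ ones and close to each other (log2 fold change 4.49, SE 0.24, adjusted p = 0.00019). Itgax, which encodes CD11c (ENSMUSG00000030789.9, chromosome 7, 128129547 to 128150657, + strand), stood at 491 and 557 CPM in the CD11b+ libraries against 784 and 946 CPM in the CD11c+ libraries. The CD11b+ libraries were below both CD11c+ libraries, but by 1.65-fold only (log2 fold change -0.72, SE 0.14, adjusted p = 0.0065), so transcripts of CD11c were abundant in both populations. In CD11b+CD11c+ cells Itgam stood at 694 and 793 CPM and Itgax at 679 and 772 CPM. Ptprc, which encodes the leukocyte marker CD45, was at 1334 and 1461 against 1542 and 1279.8 CPM and was not called (adjusted p = 0.93). Itgax was not called without CD11b+ library 1.

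Of 14 integrin genes tested, 6 were higher and 6 lower, against 27.0% and 25.0% of all genes tested. Itgae stood at 17.1 and 9.08 CPM in the CD11b+ libraries against 961 and 829 CPM in the CD11c+ libraries (log2 fold change -6.10, SE 0.53, adjusted p = 0.00057). Its partner chain Itgb7 stood at 221 and 189.8 CPM in the CD11b+ libraries against 624 and 617 CPM in the CD11c+ libraries (log2 fold change -1.59, SE 0.18, adjusted p = 0.0011). Both CD11c+ libraries were high for both chains of this CD103 receptor. Itga1, the alpha 1 chain of a collagen receptor also found on lymphocytes in epithelium, was at 12.5 and 13.2 against 127 and 70.6 CPM and lower. Itgal, the alpha chain of LFA-1, was higher (445 and 407 against 219 and 231 CPM), as was its partner Itgb2 (452 and 447 against 351 and 342 CPM, log2 fold change 0.38). Without CD11b+ library 1, 2 of the integrins were higher and 3 lower, and 2 were higher without CD11b+ library 2. Itgb2 was not called without either CD11b+ library. Itgb2 was not called with an effective length offset and by limma on log2(TPM + 1).

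The promoters of genes that carry the contrast are shown for the 250 bases before the annotated start, 5′ to 3′ on the strand of the gene, from RefSeq on GRCm38.p6. Itgam and Itgax are the sorting genes, which lie near each other on chromosome 7, Xcr1 is the cDC1 gene with the largest difference, and C1qb and C1qc are neighbours on chromosome 4 that moved together. Capitals mark matches to 4 motifs searched on both strands, namely a PU.1 core (AGGAAGT), AP-1 (TGANTCA), C/EBP (TTGCNNAA) and IRF (GAAA, any 2 bases, GAAA), none of which overlapped another in these windows.
Itgam, chr7:128062390-128062639, plus strand: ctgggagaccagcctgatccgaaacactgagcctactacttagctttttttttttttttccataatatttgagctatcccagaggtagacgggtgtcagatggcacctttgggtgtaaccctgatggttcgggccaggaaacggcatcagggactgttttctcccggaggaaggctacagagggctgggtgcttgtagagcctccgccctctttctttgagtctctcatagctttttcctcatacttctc
Itgax, chr7:128129300-128129549, plus strand: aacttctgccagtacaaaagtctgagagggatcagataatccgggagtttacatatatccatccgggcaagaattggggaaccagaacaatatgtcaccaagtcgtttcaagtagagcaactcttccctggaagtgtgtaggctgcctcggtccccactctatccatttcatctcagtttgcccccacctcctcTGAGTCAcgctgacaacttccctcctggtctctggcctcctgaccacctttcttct
Xcr1, chr9:123862030-123862279, minus strand: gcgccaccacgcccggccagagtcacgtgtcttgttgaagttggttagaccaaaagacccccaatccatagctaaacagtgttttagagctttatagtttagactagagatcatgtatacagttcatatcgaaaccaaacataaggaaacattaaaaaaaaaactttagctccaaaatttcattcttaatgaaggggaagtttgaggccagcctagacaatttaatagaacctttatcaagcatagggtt
C1qb, chr4:136886201-136886450, minus strand: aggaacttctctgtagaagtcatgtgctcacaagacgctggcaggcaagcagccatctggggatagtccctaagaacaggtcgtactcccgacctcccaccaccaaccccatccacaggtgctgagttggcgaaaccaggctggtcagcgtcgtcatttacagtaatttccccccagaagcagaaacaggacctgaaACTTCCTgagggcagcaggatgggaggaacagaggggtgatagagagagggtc
C1qc, chr4:136892915-136893164, minus strand: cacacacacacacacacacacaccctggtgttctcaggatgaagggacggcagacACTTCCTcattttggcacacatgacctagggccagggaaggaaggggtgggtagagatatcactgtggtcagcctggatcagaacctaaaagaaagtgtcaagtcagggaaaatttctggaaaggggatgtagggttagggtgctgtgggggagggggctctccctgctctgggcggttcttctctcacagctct
The window of Itgax held 1 AP-1 match, TGAGTCA, beginning 56 bases before the start. Those of C1qb and C1qc each held 1 PU.1 core on the opposite strand, read here as ACTTCCT, beginning 53 and 195 bases before the start. No match lay in the windows of Itgam and Xcr1. Of all 32851 promoters of this length in the table, 7.69% held the PU.1 core, 6.75% the AP-1 motif, 9.56% the C/EBP motif and 2.98% the IRF motif. The shares were 8.29%, 6.83%, 9.32% and 4.17% among 1845 matched genes at least 2-fold higher in CD11b+ cells, and 8.32%, 3.37%, 8.77% and 4.39% among 889 at least 2-fold lower. Among the 10839 tested genes that matched the table the shares were 7.8%, 4.66%, 7.81% and 2.83%. The tested, higher and lower sets count only the first listed start of each gene, whereas the 32851 promoters count every start. The tested genes are therefore the like comparison for the higher and lower sets. A match is a description of the letters and not a binding site.

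Estimated counts totalled 12806139 and 17709110 in the CD11b+ libraries and 24817329 and 16366962 in the CD11c+ libraries. Over genes, which are not independent replicates, log2 CPM correlated at 0.983 between the CD11b+ libraries and 0.974 between the CD11c+ libraries. Markers of other cells set the 2 CD11c+ libraries apart. Summed levels of the 20 colonic macrophage genes were 15006 and 18655 CPM in the CD11b+ libraries against 1091 and 4029 CPM in the CD11c+ libraries. CD11c+ library 2 thus carried more of these transcripts than library 1. Apoe alone, which was not called, gave 7443 and 10300 against 190 and 2198 CPM of these sums. The sums of 18 T cell genes were 150.3 and 178 CPM in the CD11b+ libraries against 1115 and 456 CPM in the CD11c+ libraries. Most of the CD11b+ part came from Cd4, which gut macrophages also express. The sums of 18 natural killer (NK) and innate lymphoid genes were 187 and 194 CPM in the CD11b+ libraries against 2132 and 811 CPM in the CD11c+ libraries. Both lists were highest in CD11c+ library 1. The sums for cDC1 genes were 997 and 992 CPM in the CD11b+ libraries against 5752 and 6032 CPM in the CD11c+ libraries, close within each group. Cd36, which macrophages share, gave a large part of the CD11b+ sums. In sorted bulk RNA, fewer cells of a type and less RNA per cell cannot be told apart. Without CD11c+ library 1 the test called 5568 genes and without CD11c+ library 2 it called 6895.

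**Figure D1:**
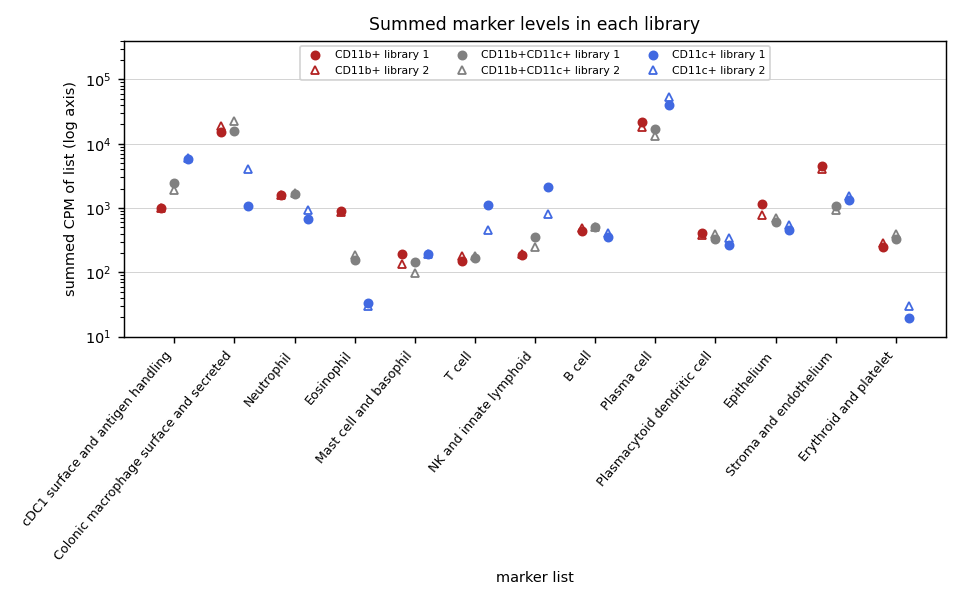
Summed CPM of the listed marker genes on a log axis in each library of CD11b+ (red), CD11b+CD11c+ (grey) and CD11c+ cells (blue), with library 1 as filled circles and library 2 as open triangles. The eosinophil list and the stroma and endothelium list separate CD11b+ from both other groups. The macrophage, T cell and NK lists separate the 2 CD11c+ libraries from each other.

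Of 14225 genes tested, 7392 (52.0%) were called, 3842 (27.0%) higher and 3550 (25.0%) lower. These shares are the background for every count of list members given here. The higher side held the larger changes. At least 2-fold, 2458 genes (17.3%) were higher and 1235 (8.68%) lower, together 26.0%, and at least 32-fold, 82 were higher and 45 lower. The libraries of the 2 groups did not overlap for 80.6% of genes tested, so lack of overlap alone does not set a gene apart. The median log2 fold change was -0.02. Leaving out 1 CD11b+ library reduced the calls to 4372 (library 1) or 4473 (library 2).

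**Figure D2:**
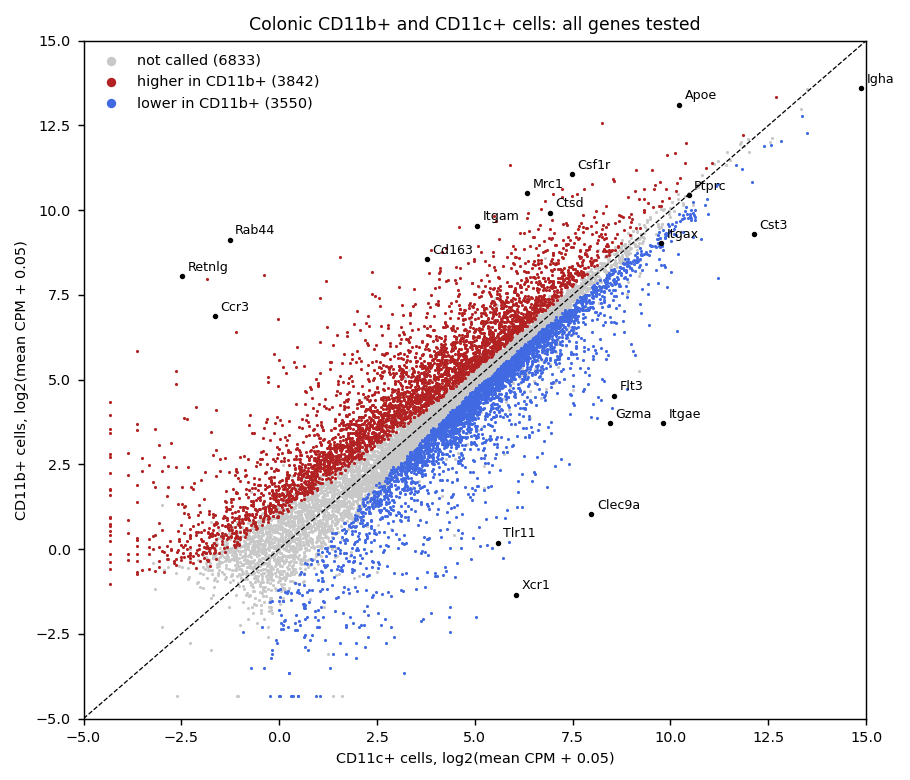
Mean level of each gene tested in CD11c+ (x axis) and CD11b+ cells (y axis), both as log2(mean CPM + 0.05), with the 3842 genes higher in CD11b+ cells in red, the 3550 lower in blue and the others in grey. The dashed line marks equal levels, and granulocyte genes lie at the left edge while cDC1 genes lie at the lower right.

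Among genes of at least 20 CPM, the 12 with the largest rise in fitted fold change were S100a8, Retnlg, S100a9, Rab44, Alox15, Serpinb2, Ccr3, Chil3, Gfi1b, Padi4, F5 and Retnla. Rab44, a large Rab GTPase of granule-bearing cells, stood at 609.7 and 509 CPM in the CD11b+ libraries against 0.1896 and 0.543 CPM in the CD11c+ libraries. Alox15, the lipoxygenase that oxidises arachidonic acid at carbon 15 in eosinophils and some macrophages, stood at 257 and 240.5 CPM in the CD11b+ libraries against 0.152 and 0.302 CPM in the CD11c+ libraries (1181 times, 95% counting interval 622 to 2584). F5, coagulation factor V, stood at 414 and 375 CPM in the CD11b+ libraries against 2.46 and 3.32 CPM in the CD11c+ libraries. Each of these was near 0 in both CD11c+ libraries. Padi4, the arginine deiminase of granulocytes, was at 85.1 and 82.8 against 0.341 and 0.483 CPM, and Gfi1b, a repressor of the blood lineages, at 31.7 and 26.2 against 0.0379 and 0.181 CPM (306 times, 95% counting interval 119 to 1126). Retnla, a resistin-like protein of alternatively activated macrophages and eosinophils, was at 111 and 109 against 0.9099 and 0.965 CPM, and stood higher still in CD11b+CD11c+ cells at 244 and 171 CPM. Reads of Retnla and Retnlg could be divided among near-identical family members.

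The 12 genes with the largest fall were Xcr1, Gcsam, Gpr33, Clec9a, Snx22, Klra6, Itgae, Sept3, Cd8a, Tlr11, Sema4f and Cd3d. Gcsam, a signalling adaptor first described in germinal centre B cells, stood at 0.231 and 0.171 CPM in the CD11b+ libraries against 34.05 and 31.1 CPM in the CD11c+ libraries (167 times, 95% counting interval 76.7 to 457). Sept3, a septin of the cytoskeleton, stood at 0.769 and 0.7995 CPM in the CD11b+ libraries against 50.4 and 55.2 CPM in the CD11c+ libraries, and Sema4f, a membrane semaphorin, at 0.923 and 1.03 against 42.9 and 43.1 CPM. These 3 genes were alike in the 2 CD11c+ libraries. Klra6, an NK receptor of the Ly49 family with near-identical copies, was at 0.231 and 0.286 against 34.01 and 7.24 CPM, Cd8a, the CD8 alpha chain, at 0.9997 and 1.199 against 91.7 and 26.2 CPM and Cd3d, a signalling chain of the T cell receptor complex, at 0.846 and 0.685 against 46.1 and 13.3 CPM. In this last group CD11c+ library 1 was well above library 2, as for the T cell and NK sums, and the part of those cells in the difference was not tested.

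Most cDC1 genes were lower. Of 18 tested, 16 were lower and 1 higher (median log2 fold change -3.57). Xcr1, the receptor for the chemokine XCL1, stood at 0.461 and 0.228 CPM in the CD11b+ libraries against 64.5 and 67.7 CPM in the CD11c+ libraries (201 times, 95% counting interval 109 to 419, adjusted p = 0.00054). Clec9a, the receptor for actin exposed by dead cells, stood at 2.38 and 1.599 CPM in the CD11b+ libraries against 245 and 259.9 CPM in the CD11c+ libraries (log2 fold change -7.00, SE 0.58, adjusted p = 0.0005). Wdfy4, which is needed for cross-presentation, stood at 251 and 257 CPM in the CD11b+ libraries against 2175 and 2589.7 CPM in the CD11c+ libraries (log2 fold change -3.23, SE 0.24, adjusted p = 0.0004). The CD11c+ libraries lay within a narrow range of each other for each of these. The groups did not overlap, as for 80.6% of all genes tested. Naaa, a lysosomal amidase, was at 56.8 and 58.3 against 526 and 519.8 CPM, Ppt1, a lysosomal thioesterase, at 94.1 and 101 against 699 and 705 CPM and Btla, an inhibitory receptor, at 5.46 and 7.02 against 152 and 144 CPM. Ly75, the endocytic receptor DEC-205, was at 7.998 and 6.05 against 97.6 and 113 CPM. Ifi205, an interferon-inducible protein, was at 42.1 and 39.6 against 229.9 and 242 CPM. Cd36, a scavenger receptor shared with macrophages, was the 1 higher gene (419.9 and 409 against 214 and 243 CPM), and Cd24a was not called (70.8 and 62.3 against 69.4 and 68.95 CPM, adjusted p = 0.71). CD11b+CD11c+ cells held intermediate cDC1 levels, with Xcr1 at 7.59 and 2.18 CPM and Clec9a at 30.1 and 10.4 CPM.

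Dendritic cell transcription factors were called in both directions. Of 19 dendritic cell factors tested, 9 were lower, 6 higher and 4 not called (median log2 fold change -0.37). Over all genes tested, 25.0% were lower and 27.0% higher. Irf8, the cDC1 factor, stood at 96.97 and 114 CPM in the CD11b+ libraries against 428 and 456 CPM in the CD11c+ libraries (log2 fold change -2.07, SE 0.12, adjusted p = 0.00022). Zbtb46, a factor of conventional dendritic cells as against macrophages, stood at 9.77 and 10.2 CPM in the CD11b+ libraries against 65.1 and 68.7 CPM in the CD11c+ libraries (log2 fold change -2.74, SE 0.17, adjusted p = 0.00024). Zfp366, also called DC-SCRIPT, stood at 3.08 and 3.88 CPM in the CD11b+ libraries against 25.2 and 28.3 CPM in the CD11c+ libraries (log2 fold change -2.93, SE 0.23, adjusted p = 0.00047). For all 3 the CD11c+ libraries were alike and the groups were well apart. Batf3 differed less (12.8 and 13.1 against 21.99 and 28.1 CPM, log2 fold change -0.95). Zeb2, which favours monocytes, macrophages and cDC2 over cDC1, was at 392 and 406 against 32.9 and 55.3 CPM and Relb, an NF-kappaB subunit, at 418 and 412 against 142 and 176 CPM, both higher. Irf4, a cDC2 factor, was not called (42.1 and 46.03 against 39.1 and 48.3 CPM, adjusted p = 0.94, and the 95% interval of the log2 fold change ran from -0.29 to 0.32), and Nfil3, which acts early in cDC1 development, was not called (191 and 198 against 199.6 and 229 CPM, adjusted p = 0.28).

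Of 20 macrophage and monocyte factors tested, 18 were higher and 1 lower (median log2 fold change 1.67). Cebpb, a factor of monocytes and macrophages, stood at 616 and 710.3 CPM in the CD11b+ libraries against 77.7 and 89.3 CPM in the CD11c+ libraries (log2 fold change 2.99, SE 0.17, adjusted p = 0.00022). Maf stood at 53.8 and 56.7 CPM in the CD11b+ libraries against 6.71 and 6.696 CPM in the CD11c+ libraries (log2 fold change 3.04, SE 0.17, adjusted p = 0.00022). Maf was even between the CD11c+ libraries. Spic, a factor of iron-recycling macrophages, was at 41.8 and 47.97 against 1.21 and 4.77 CPM and Nr1h3, the sterol-sensing receptor LXR alpha, at 16.2 and 18.4 against 2.39 and 3.86 CPM. Tfec, of the family of lysosomal gene regulators, was at 13.5 and 10.4 against 0.114 and 1.33 CPM. Spi1, which encodes PU.1 and is needed in both lineages, was higher by less (493 and 501 against 211 and 284 CPM, log2 fold change 1.00). Bhlhe40 was the 1 lower factor (222 and 212 against 422 and 417 CPM) and Nr4a1 was not called (848 and 866 against 632 and 804 CPM, adjusted p = 0.23). Runx1 was higher (log2 fold change 0.45), but its direction turned to -0.32 with an offset for effective length (adjusted p = 0.068) and to -0.24 by limma on log2(TPM + 1) (adjusted p = 0.131). The adjusted p of the main test was 0.0055.

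Of 15 cDC2 and migratory genes tested, 5 were higher, 2 lower and 8 not called (median log2 fold change 0.60). This median was 0.33 without CD11b+ library 2 and 0.29 without CD11c+ library 1. Over all genes tested, 27.0% were higher and 25.0% lower. Sirpa, an inhibitory receptor of cDC2 and macrophages, stood at 368 and 389 CPM in the CD11b+ libraries against 15.6 and 47.8 CPM in the CD11c+ libraries (log2 fold change 3.59, SE 0.50, adjusted p = 0.0024). Clec10a and Mgl2, lectins of cDC2 and macrophages, stood at 38.2 and 43.1 against 5.31 and 6.82 CPM and at 131 and 164 against 6.14 and 27.3 CPM. Each of these is shared with macrophages. Of the listed genes of migrating mature dendritic cells, Ccr7 and Fscn1 were not called, and the others are not reported here. Ccr7, the receptor that guides them to lymph nodes, was at 62.9 and 54.997 against 57.4 and 85.2 CPM (adjusted p = 0.31) and Fscn1, which bundles actin in their dendrites, at 15.3 and 16.3 against 8.15 and 12.8 CPM (adjusted p = 0.099). Esam, a marker of Notch2-dependent splenic cDC2, was under 3 CPM in all 4 libraries. Cd7 and Dtx1 were the lower genes (5.84 and 4.91 against 204 and 58.9 CPM and 0.9997 and 1.43 against 23.1 and 5.01 CPM), and both were highest in CD11c+ library 1. Without CD11c+ library 2 the list held 8 higher members, and 1 lower member without either CD11b+ library. Dtx1 was not called without either CD11b+ library or CD11c+ library 1. Dtx1 was not called by limma on log2(TPM + 1).

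Of 20 colonic macrophage genes tested, 17 were higher and 2 lower (median log2 fold change 3.43). Csf1r, the receptor of the macrophage growth factor CSF1, stood at 2051 and 2199 CPM in the CD11b+ libraries against 51.1 and 306 CPM in the CD11c+ libraries (log2 fold change 3.58, SE 0.78, adjusted p = 0.011). Mrc1, the mannose receptor CD206, stood at 1389 and 1509.9 CPM in the CD11b+ libraries against 24.1 and 138 CPM in the CD11c+ libraries (log2 fold change 4.16, SE 0.77, adjusted p = 0.0063). Cd163, the scavenger receptor for haptoglobin-bound haemoglobin, stood at 395 and 360.4 CPM in the CD11b+ libraries against 6.8999 and 20.2 CPM in the CD11c+ libraries (log2 fold change 4.82, SE 0.49, adjusted p = 0.00087). CD11c+ library 2 was the higher of the pair each time, and yet far under both CD11b+ libraries. Lyve1, the hyaluronan receptor, was at 83.9 and 74.5 against 1.55 and 3.92 CPM, Folr2, the folate receptor beta, at 99.7 and 98.1 against 1.71 and 5.67 CPM and Siglec1, the sialic acid receptor CD169, at 66.5 and 71.3 against 1.18 and 2.84 CPM. Stab1, a scavenger receptor, was at 763 and 869 against 15.7 and 77.6 CPM and Adgre1, which encodes F4/80, at 926 and 1022 against 32.1 and 133 CPM. Timd4, a receptor for exposed phosphatidylserine on resident macrophages, went against the rest (50.8 and 58.4 CPM in the CD11b+ libraries against 185 and 198 CPM in the CD11c+ libraries, log2 fold change -1.81, SE 0.11, adjusted p = 0.00024), as did the tetraspanin gene Cd81 (213 and 269.96 against 362 and 421 CPM). Apoe, the lipid carrier, was not called (7443 and 10300.0 CPM in the CD11b+ libraries against 190.01 and 2198 CPM in the CD11c+ libraries, adjusted p = 0.052), with CD11c+ library 2 far above library 1. Its log2 fold change was 2.00 without CD11c+ library 1 and 5.53 without CD11c+ library 2, called both times, and its adjusted p over the 14 alternatives ran from 0.00025 to 0.15. The median was 2.60 without CD11c+ library 1 and 5.22 without CD11c+ library 2. Without CD11b+ library 1 or without CD11c+ library 2, 1 member was lower. Cd81 was not called without CD11b+ library 1 or CD11c+ library 2. Cd81 was not called by limma on log2(TPM + 1).

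Of 14 monocyte genes tested, 12 were higher and 1 lower (median log2 fold change 1.94). Fn1, which encodes fibronectin, stood at 1492 and 1350.1 CPM in the CD11b+ libraries against 169.8 and 222 CPM in the CD11c+ libraries (log2 fold change 2.86, SE 0.22, adjusted p = 0.00042). F13a1, the coagulation factor XIII A chain, stood at 464 and 436 CPM in the CD11b+ libraries against 5.08 and 24.4 CPM in the CD11c+ libraries (log2 fold change 4.96, SE 0.70, adjusted p = 0.0024). Lyz2, the lysozyme of phagocytes, stood at 2177 and 2439 CPM in the CD11b+ libraries against 435 and 682 CPM in the CD11c+ libraries (log2 fold change 2.05, SE 0.24, adjusted p = 0.0013). The groups did not overlap for any of them, as for 80.6% of all genes tested. Chil3, a chitinase-like protein, was at 38.7 and 37.4 against 0.0379 and 0.181 CPM (408 times, 95% counting interval 159 to 1498). Ly6c2, the surface antigen of classical monocytes, was the 1 lower gene (73.2 and 69.7 CPM in the CD11b+ libraries against 109 and 147 CPM in the CD11c+ libraries, log2 fold change -0.84, SE 0.17, adjusted p = 0.0081), and Ccr2, their recruitment receptor, was higher by 1.46-fold (84.7 and 96.6 against 64.5 and 60.03 CPM). Plac8 was not called (276 and 212 against 259 and 188 CPM, adjusted p = 0.75). Ccr2 was not called without CD11b+ library 2.

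**Figure D3:**
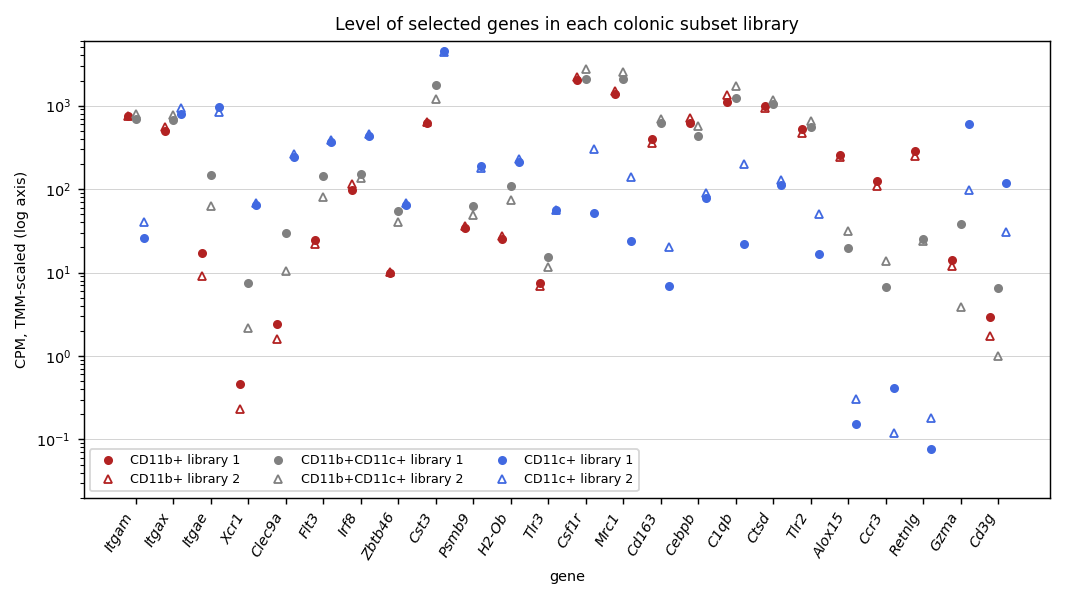
CPM on a log axis of 24 genes described in the text in every library of the 3 colonic subsets, with CD11b+ in red, CD11b+CD11c+ in grey and CD11c+ in blue, and library 1 filled and library 2 open. The dendritic cell genes from Xcr1 to Zbtb46 are alike in the 2 CD11c+ libraries. The macrophage genes from Csf1r to C1qb are higher in CD11c+ library 2 than in library 1.

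Complement genes, whose products tag particles for uptake, were mostly higher. Of 17 tested, 16 were higher and 0 lower (median log2 fold change 2.81). C1qb, a chain of the first component, stood at 1113 and 1346 CPM in the CD11b+ libraries against 22.2 and 199 CPM in the CD11c+ libraries (log2 fold change 3.48, SE 0.92, adjusted p = 0.021). C1qa stood at 950.1 and 1167 CPM in the CD11b+ libraries against 16.4 and 191 CPM in the CD11c+ libraries (log2 fold change 3.36, SE 1.00, adjusted p = 0.032) and C1qc at 776 and 964 CPM in the CD11b+ libraries against 14.6 and 145 CPM in the CD11c+ libraries (log2 fold change 3.45, SE 0.96, adjusted p = 0.025). All 3 chains showed the same order, low in CD11c+ library 1, higher in library 2 and highest in CD11b+ cells. C3, the central component, was even within groups (320.3 and 286 CPM in the CD11b+ libraries against 42.8 and 48.99 CPM in the CD11c+ libraries, log2 fold change 2.72, SE 0.12, adjusted p = 0.00013). The receptors for its fragments followed, with C3ar1 at 408 and 459 against 10.2 and 60.9 CPM and C5ar1 at 302 and 331 against 4.25 and 30.4 CPM. Cd59a was not called (under 1 CPM in all 4 libraries). Of 8 Fc receptor genes tested of 9 listed, 6 were higher and 0 lower. Fcgr3, an activating receptor for IgG, was at 278 and 313 against 8.57 and 25.7 CPM, Fcgr2b, the inhibitory one, at 332 and 354 against 45.4 and 81.5 CPM and Fcer1g, the shared signalling chain, at 245 and 278 against 46.9 and 49.8 CPM. Fcgrt, which recycles IgG, was higher as well (188 and 193 against 60.8 and 84.5 CPM). C1qb, C1qa and C1qc were not called without either CD11b+ library. C1qa was not called in the fit of the 4 libraries alone.

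Most surface Toll-like receptor genes were higher, and those of endosomes were called in both directions. Of 13 surface receptor and co-receptor genes tested, 12 were higher and 0 lower (median log2 fold change 2.83). The median was 2.23 without CD11c+ library 1 and 3.12 without CD11c+ library 2. Tlr2, the receptor for bacterial lipopeptides, stood at 522 and 469 CPM in the CD11b+ libraries against 16.5 and 50.6 CPM in the CD11c+ libraries (log2 fold change 3.89, SE 0.51, adjusted p = 0.0019). Tlr4, the receptor for lipopolysaccharide, stood at 35.8 and 37.2 CPM in the CD11b+ libraries against 4.17 and 5.25 CPM in the CD11c+ libraries (log2 fold change 2.96, SE 0.14, adjusted p = 0.00014). Cd14, its co-receptor, stood at 1253 and 1494 CPM in the CD11b+ libraries against 64.4 and 291 CPM in the CD11c+ libraries (log2 fold change 2.95, SE 0.67, adjusted p = 0.012). Both CD11b+ libraries exceeded both CD11c+ libraries for each, and the groups did not overlap for 80.6% of all genes tested. Tlr5, the flagellin receptor, was at 26.7 and 33.2 against 1.93 and 4.71 CPM, and Irak3, an inhibitor of the pathway, at 65.4 and 49.3 against 3.18 and 4.58 CPM. Of 9 endosomal genes, 4 were higher and 2 lower (median log2 fold change 0.55), against 27.0% and 25.0% of all genes tested. This median was 0.28 without CD11c+ library 1 and 0.85 without CD11c+ library 2. The receptors for RNA and DNA Tlr7 (138 and 153 against 3.602 and 17.7 CPM), Tlr8 (51.8 and 55.2 against 0.758 and 6.46 CPM), Tlr9 (67.7 and 88.01 against 18.4 and 34.9 CPM) and Tlr13 (132 and 145 against 34.95 and 52.2 CPM) were higher. Tlr3, for double-stranded RNA, stood at 7.54 and 6.97 CPM in the CD11b+ libraries against 56.6 and 56.9 CPM in the CD11c+ libraries (log2 fold change -2.97, SE 0.16, adjusted p = 0.00019), and Tlr11, for profilin and flagellin, at 1.15 and 1.03 CPM in the CD11b+ libraries against 50.2 and 46.3 CPM in the CD11c+ libraries (log2 fold change -5.47, SE 0.25, adjusted p = 0.00014). These 2 were the lower genes, with nearly equal values in the 2 CD11c+ libraries. Tlr12, the partner of Tlr11, was not called (32.1 and 49.5 against 64.2 and 83.6 CPM, adjusted p = 0.12), nor was the chaperone gene Unc93b1 (adjusted p = 0.058). Cd14 was not called without CD11b+ library 2.

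Of 17 C-type lectin genes tested, receptors for sugars of microbes and dying cells, 11 were higher and 1 lower (median log2 fold change 2.85). Clec4e, the mycobacterial cord factor receptor Mincle, stood at 253 and 226 CPM in the CD11b+ libraries against 1.14 and 3.32 CPM in the CD11c+ libraries (log2 fold change 6.82, SE 0.44, adjusted p = 0.00028). Clec7a, the beta-glucan receptor Dectin-1, stood at 331 and 366 CPM in the CD11b+ libraries against 105 and 174 CPM in the CD11c+ libraries (log2 fold change 1.33, SE 0.23, adjusted p = 0.0051). Clec4n, the mannan receptor Dectin-2, stood at 143 and 175 CPM in the CD11b+ libraries against 4.21 and 28.8 CPM in the CD11c+ libraries (log2 fold change 3.29, SE 0.78, adjusted p = 0.015). Clec7a was thus well transcribed in both populations, and Clec4e was near 0 in both CD11c+ libraries. Cd209f, of the SIGNR family, was at 27.99 and 28.6 against 0.531 and 1.33 CPM. Clec12a, an inhibitory receptor for uric acid crystals, was the 1 lower gene (62.7 and 61.7 against 80.1 and 83.3 CPM). Clec4n was not called without either CD11b+ library, nor was Clec12a without either CD11b+ library or either CD11c+ library. Clec12a was not called by limma on log2(TPM + 1).

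Several class II presentation genes were lower and none higher. Of 13 tested, 8 were lower and 0 higher (median log2 fold change -0.79). Ciita, the master regulator of class II transcription, stood at 42.2 and 52.998 CPM in the CD11b+ libraries against 100.01 and 119.99 CPM in the CD11c+ libraries (log2 fold change -1.21, SE 0.14, adjusted p = 0.0014). H2-Ob stood at 24.9 and 27.4 CPM in the CD11b+ libraries against 212 and 228 CPM in the CD11c+ libraries (log2 fold change -3.07, SE 0.20, adjusted p = 0.00028), and H2-Oa, with which it forms the peptide-loading modulator H2-O, at 11.8 and 11.7 CPM in the CD11b+ libraries against 73.1 and 85.8 CPM in the CD11c+ libraries (log2 fold change -2.76, SE 0.24, adjusted p = 0.00053). Both H2-O chains were lower by more than Ciita. H2-DMb2, a chain of the loading catalyst, was at 39.7 and 41.3 against 157 and 189.7 CPM and H2-DMa at 228 and 269 against 438 and 512 CPM. H2-Ab1, a chain of the presenting molecule, was lower (3508 and 4955 against 6631 and 7984 CPM, log2 fold change -0.79). H2-Aa (3773 and 5203 against 5573 and 6727 CPM, adjusted p = 0.09), H2-Eb1 (adjusted p = 0.065) and Cd74, the invariant chain (6799 and 9479.7 against 9074 and 11728 CPM, adjusted p = 0.2), were not called. Reads of the H2 genes can be divided among near-identical copies. H2-Ab1 was not called without CD11b+ library 1 or CD11c+ library 2.

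Class I pathway genes were called in both directions, more of them lower. Of 18 genes tested, 8 were lower and 3 higher (median log2 fold change -0.20), against 25.0% and 27.0% of all genes tested. Tap1, a chain of the peptide transporter, stood at 116 and 92.5 CPM in the CD11b+ libraries against 368 and 388 CPM in the CD11c+ libraries (log2 fold change -1.85, SE 0.18, adjusted p = 0.00072). Psmb9, an immunoproteasome subunit, stood at 34.1 and 35.6 CPM in the CD11b+ libraries against 187 and 178 CPM in the CD11c+ libraries (log2 fold change -2.39, SE 0.13, adjusted p = 0.00021). Psmb8, another subunit, stood at 115 and 116 CPM in the CD11b+ libraries against 352 and 345 CPM in the CD11c+ libraries (log2 fold change -1.60, SE 0.13, adjusted p = 0.00047). The libraries of a group were close together for these genes. Tap2 was at 124 and 116 against 308 and 321 CPM and Rab43, a GTPase needed for cross-presentation by cDC1, at 42.9 and 55.9 against 155 and 179 CPM. H2-K1 was not called (1707 and 1759.9 against 1811 and 1511 CPM, adjusted p = 0.68, and the 95% interval of the log2 fold change ran from -0.23 to 0.35). B2m and H2-D1 were higher by log2 fold changes of 0.38 and 0.34, and Cybb, whose oxidase also acts in phagosomes of dendritic cells, by 2.72. With an offset for effective length and by limma on log2(TPM + 1), 5 members were lower. Leaving out CD11b+ library 1, CD11b+ library 2 or CD11c+ library 2 left 1 higher member each time. B2m and H2-D1 were not called without either CD11b+ library or CD11c+ library 2. B2m was not called with an effective length offset, nor was H2-D1 in the fit of the 4 libraries alone.

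Most lysosomal protease genes were higher. Of 14 cathepsin and inhibitor genes tested, 12 were higher and 1 lower (median log2 fold change 1.59). Ctsd, an aspartic protease, stood at 994 and 949.7 CPM in the CD11b+ libraries against 112 and 129.5 CPM in the CD11c+ libraries (log2 fold change 3.01, SE 0.12, adjusted p = 0.00011). Ctsb, a cysteine protease, stood at 1844 and 2047 CPM in the CD11b+ libraries against 242 and 493 CPM in the CD11c+ libraries (log2 fold change 2.40, SE 0.34, adjusted p = 0.0024). Ctss, which trims the invariant chain, stood at 1240.2 and 1466 CPM in the CD11b+ libraries against 366 and 592 CPM in the CD11c+ libraries (log2 fold change 1.50, SE 0.24, adjusted p = 0.0039). Both CD11b+ libraries were above both CD11c+ libraries in each case, and the groups did not overlap for 80.6% of all genes tested. Cst3, which encodes the secreted protease inhibitor cystatin C, was the 1 lower gene at 619.9 and 632 CPM in the CD11b+ libraries against 4497 and 4455 CPM in the CD11c+ libraries (log2 fold change -2.84, SE 0.20, adjusted p = 0.00035). It was among the 10 genes of highest TPM in CD11c+ cells, with 1418 TPM in CD11b+ and 9594 TPM in CD11c+ cells. Lgmn, an asparagine endopeptidase, was at 1448 and 1690.1 against 114 and 329 CPM.

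**Figure D4:**
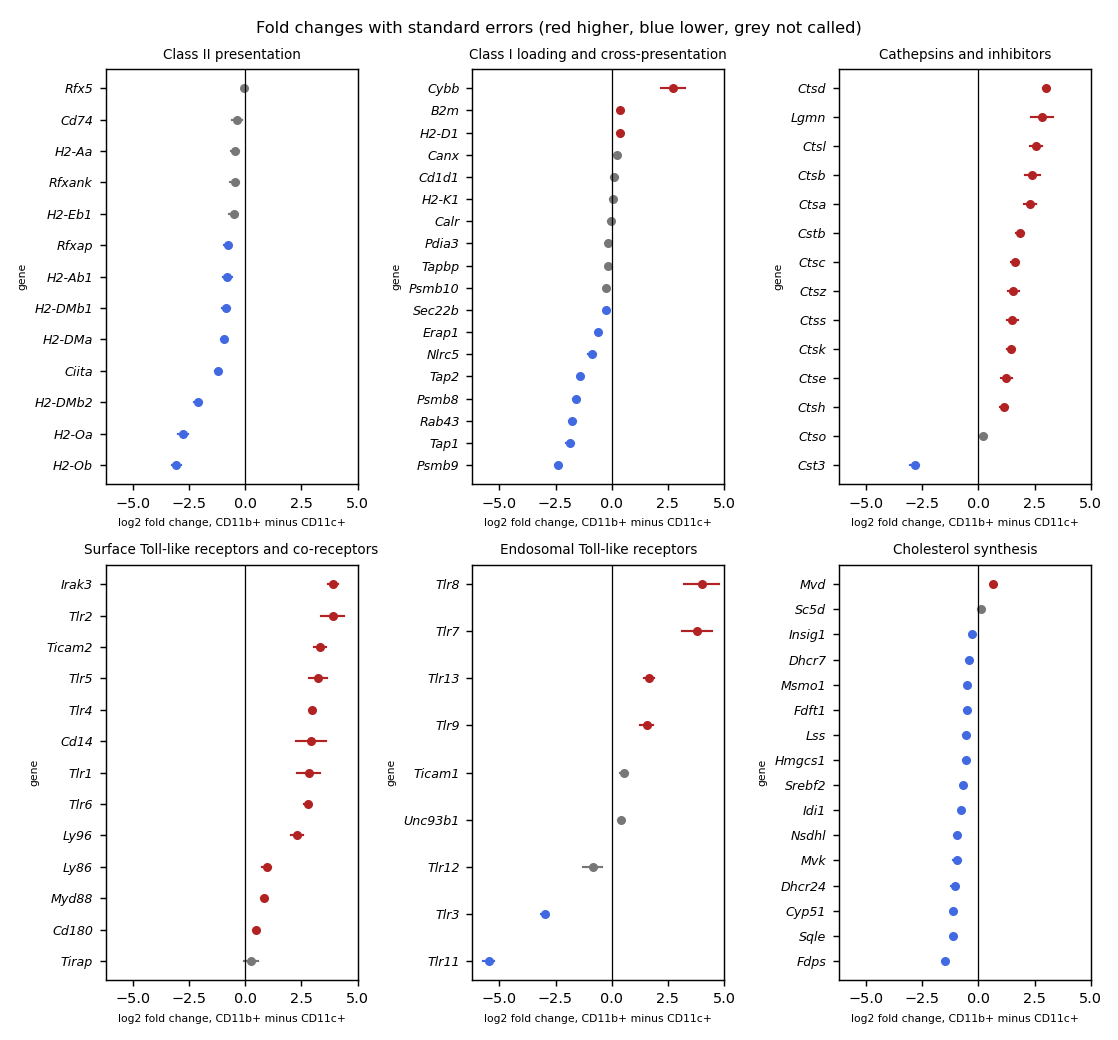
Log2 fold change, CD11b+ minus CD11c+, with its standard error for tested genes of 6 lists, in red where higher, blue where lower and grey where not called. Cathepsins and surface Toll-like receptors lie to the right except Cst3, and the H2-O, immunoproteasome and most cholesterol synthesis genes lie to the left.

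Genes for taking up dead cells were mostly higher. Of 17 tested, 11 were higher and 3 lower (median log2 fold change 1.89). Gas6, which bridges exposed phosphatidylserine to the kinases MERTK and AXL, stood at 233 and 233 CPM in the CD11b+ libraries against 21.4 and 39.6 CPM in the CD11c+ libraries (log2 fold change 2.94, SE 0.30, adjusted p = 0.00086). Axl stood at 337 and 439 CPM in the CD11b+ libraries against 29.6 and 109.7 CPM in the CD11c+ libraries (log2 fold change 2.48, SE 0.60, adjusted p = 0.015) and Mertk at 48.99 and 58.5 CPM in the CD11b+ libraries against 2.58 and 9.77 CPM in the CD11c+ libraries (log2 fold change 3.17, SE 0.54, adjusted p = 0.0046). The bridging protein and both kinases were higher together. Lrp1, a large endocytic receptor, was at 679 and 728 against 72.3 and 125 CPM, and Cd300lf, another lipid receptor, at 196 and 161 against 5.04 and 5.79 CPM. Besides Timd4, given above, Scarb1, the receptor for high-density lipoprotein, was lower (37.5 and 39.6 against 52.8 and 62.4 CPM), and so was Stab2 at under 3 CPM in all 4 libraries. Without CD11b+ library 1, 1 member was lower. Axl was not called without CD11b+ library 2, nor was Scarb1 without CD11b+ library 1, nor was Stab2 without either CD11b+ library or either CD11c+ library. Stab2 was not called with an effective length offset, by limma on log2(TPM + 1) and by DESeq2.

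Of 16 iron and heme genes tested, 12 were higher and 1 lower (median log2 fold change 1.59). Hmox1, which breaks down heme, stood at 248 and 265 CPM in the CD11b+ libraries against 12.6 and 36.1 CPM in the CD11c+ libraries (log2 fold change 3.41, SE 0.46, adjusted p = 0.0021). Slc40a1, the iron exporter ferroportin, stood at 28.1 and 28.04 CPM in the CD11b+ libraries against 2.199 and 6.33 CPM in the CD11c+ libraries (log2 fold change 2.78, SE 0.42, adjusted p = 0.0032). Slc11a1, the phagosomal metal transporter, stood at 416 and 462 CPM in the CD11b+ libraries against 18.7 and 69.9 CPM in the CD11c+ libraries (log2 fold change 3.32, SE 0.59, adjusted p = 0.0052). Fth1, the ferritin heavy chain, was already abundant in CD11c+ cells and higher still in CD11b+ cells (3657 and 4428 against 1018 and 1672 CPM). Tfrc, the transferrin receptor for iron uptake, was the 1 lower gene (46.8 and 39.5 against 61.1 and 53.9 CPM). No member was lower without CD11b+ library 2 or without CD11c+ library 1, and 2 were with an offset for effective length. Of 7 phagocyte oxidase genes, 5 were higher and none lower. Among them Rac2, a small GTPase of the complex, was not called (196 and 198 against 203 and 161 CPM, adjusted p = 0.47). Tfrc was not called without CD11b+ library 2 or CD11c+ library 1. Tfrc was not called by limma on log2(TPM + 1).

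Of 24 eicosanoid genes listed, which make or sense lipid mediators from arachidonic acid, 22 were tested, 14 were higher and 1 lower (median log2 fold change 1.73). Pla2g7, which degrades platelet-activating factor, stood at 911 and 903 CPM in the CD11b+ libraries against 11.98 and 78.2 CPM in the CD11c+ libraries (log2 fold change 4.34, SE 0.84, adjusted p = 0.0073). Alox5, the enzyme that starts leukotriene synthesis, stood at 121 and 114 CPM in the CD11b+ libraries against 3.53 and 5.97 CPM in the CD11c+ libraries (log2 fold change 4.65, SE 0.28, adjusted p = 0.00024). Ptgs2, the inducible cyclooxygenase COX-2, stood at 410.03 and 544 CPM in the CD11b+ libraries against 39.8 and 149 CPM in the CD11c+ libraries (log2 fold change 2.34, SE 0.63, adjusted p = 0.022). Alox5 was even within groups, and Ptgs2 was several times higher in CD11c+ library 2 than in library 1. Alox5ap, the partner of Alox5, was not called (257 and 199 against 183 and 194 CPM, adjusted p = 0.17), and neither was Lta4h, which makes leukotriene B4 (adjusted p = 0.24). Cysltr2, a receptor for cysteinyl leukotrienes, was the 1 lower gene (0.846 and 0.971 against 19.3 and 5.85 CPM). It was not tested under the stricter count filter, and 2 members were lower without a filter. Ptgs2 was not called without either CD11b+ library.

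Of 15 interleukin 1 family and inflammasome genes tested, 9 were higher and 2 lower (median log2 fold change 1.11). Il1b, the inflammatory cytokine, stood at 2834 and 3528 CPM in the CD11b+ libraries against 549 and 1382 CPM in the CD11c+ libraries (log2 fold change 1.72, SE 0.44, adjusted p = 0.019). Il1rn, the receptor antagonist, stood at 251 and 251 CPM in the CD11b+ libraries against 6.41 and 27.3 CPM in the CD11c+ libraries (log2 fold change 3.92, SE 0.63, adjusted p = 0.0038). Nlrp3, the inflammasome sensor, stood at 889.7 and 1120.1 CPM in the CD11b+ libraries against 149 and 396 CPM in the CD11c+ libraries (log2 fold change 1.88, SE 0.46, adjusted p = 0.017). For all 3 the CD11b+ libraries exceeded both CD11c+ libraries, of which library 2 was the higher. Il1r2, the decoy receptor, was not called (582 and 683 against 669.8 and 915 CPM, adjusted p = 0.15). Il18r1, a receptor gene for interleukin 18, was lower (4.38 and 3.48 against 23.9 and 19.1 CPM), as was Il1rap (21.8 and 21.6 against 34.7 and 32.4 CPM). Without either CD11b+ library, 5 members were higher and 1 lower. Il1b, Nlrp3 and Il1rap were not called without either CD11b+ library. Il1rap was not called by limma on log2(TPM + 1).

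Of 14 tested genes of the interleukin 12, 6 and 10 families, 7 were higher and 4 lower (median log2 fold change 0.88). Over all genes tested the shares were 27.0% and 25.0%. Il10, the cytokine that restrains gut inflammation, stood at 164 and 258 CPM in the CD11b+ libraries against 4.97 and 63.4 CPM in the CD11c+ libraries and was not called (log2 fold change 2.64, SE 1.05, adjusted p = 0.077). CD11b+ levels exceeded both CD11c+ libraries, but CD11c+ library 2 was far above library 1, and the gene was called without either CD11c+ library. Its receptor chains were higher, Il10ra at 227 and 245 against 80.5 and 107 CPM and Il10rb at 169.9 and 173 against 39.997 and 54.8 CPM. Il6 was at 26.99 and 25.9 against 5.72 and 6.82 CPM and Ebi3, a shared chain of interleukins 27 and 35, at 72.8 and 75.96 against 23.2 and 27.9 CPM. Il22ra2, the secreted antagonist of interleukin 22, stood at 4.77 and 2.46 CPM in the CD11b+ libraries against 28.6 and 38.97 CPM in the CD11c+ libraries (log2 fold change -3.25, SE 0.31, adjusted p = 0.00075), and was high in both CD11c+ libraries. Il12rb2 was lower too (31.8 and 26.6 against 119.7 and 72.2 CPM). Il12b, the chain shared by interleukins 12 and 23, was lower (5.15 and 5.31 against 7.05 and 14.7 CPM). Leaving out CD11b+ library 2 left 4 members higher and 1 lower, and leaving out CD11b+ library 1 left 2 lower. Il12rb2 was not called without CD11b+ library 2, nor was Il12b without either CD11b+ library or CD11c+ library 2. Il12b was not called with an effective length offset, by limma on log2(TPM + 1), under the stricter count filter, with DESeq2 size factors and in the fit of the 4 libraries alone.

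Chemokine ligands were mostly higher. Of 24 tested, 19 were higher and 3 lower (median log2 fold change 2.81). The median was 2.20 without CD11c+ library 1 and 4.37 without CD11c+ library 2. Ccl2, which recruits monocytes, stood at 438 and 433 CPM in the CD11b+ libraries against 6.597 and 29.3 CPM in the CD11c+ libraries (log2 fold change 4.62, SE 0.67, adjusted p = 0.0027). Ccl6 stood at 726 and 726 CPM in the CD11b+ libraries against 22.1 and 25.8 CPM in the CD11c+ libraries (log2 fold change 4.92, SE 0.12, adjusted p = 5.8e-05) and its relative Ccl9 at 296 and 279 CPM in the CD11b+ libraries against 2.27 and 7.903 CPM in the CD11c+ libraries (log2 fold change 5.87, SE 0.54, adjusted p = 0.00066). Ccl6 had nearly equal values within each group. Cxcl2, which recruits neutrophils, was at 1209.7 and 1478 against 26.9 and 271 CPM, and CD11c+ library 2 was far above library 1. Pf4, platelet factor 4, was at 204 and 205 against 2.92 and 18.9 CPM, Ccl7 at 284 and 284 against 5.27 and 23.1 CPM and Ccl24, an attractant of eosinophils, at 19.5 and 16.96 against 0 and 0.362 CPM (129 times, 95% counting interval 59.01 to 354). Ccl5 stood at 30.1 and 22.6 CPM in the CD11b+ libraries against 775 and 179 CPM in the CD11c+ libraries (log2 fold change -4.18, SE 0.87, adjusted p = 0.0092) and Xcl1, the ligand of XCR1, at 4.54 and 4.57 CPM in the CD11b+ libraries against 86.4 and 60.8 CPM in the CD11c+ libraries (log2 fold change -4.01, SE 0.46, adjusted p = 0.0013). Both are made by T and NK cells, whose marker sums were also higher in the CD11c+ libraries, above all in library 1, and the part of those cells was not tested. Cxcl9 was lower (9.15 and 7.82 against 17.6 and 14.6 CPM) while Cxcl10, a related interferon-induced ligand, was higher (91.7 and 92.5 against 15.8 and 30.9 CPM). Cxcl2 and Ccl5 were not called without either CD11b+ library. Cxcl2 was not called in the fit of the 4 libraries alone.

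Of 19 receptor genes tested, 11 were higher and 4 lower, against 27.0% and 25.0% of all genes tested (median log2 fold change 0.67). This median was 1.04 without CD11c+ library 2. Ccr3, the eotaxin receptor, stood at 125 and 109 CPM in the CD11b+ libraries against 0.417 and 0.121 CPM in the CD11c+ libraries (log2 fold change 8.59, SE 0.51, adjusted p = 0.00024). Ccr1 stood at 233 and 263 CPM in the CD11b+ libraries against 10.3 and 34.4 CPM in the CD11c+ libraries (log2 fold change 3.48, SE 0.54, adjusted p = 0.0033). Cx3cr1, the fractalkine receptor of gut macrophages, stood at 77.6 and 93.03 CPM in the CD11b+ libraries against 2.502 and 15.3 CPM in the CD11c+ libraries (log2 fold change 3.31, SE 0.74, adjusted p = 0.012). All 3 were lowest in the CD11c+ libraries. Cxcr4 was at 409.96 and 439 against 102 and 156 CPM and Cmklr1, the chemerin receptor, at 58.6 and 72.5 against 2.01 and 7.48 CPM. Besides Xcr1, the lower receptors were Ccr9, which guides cells to the small intestine (3.08 and 2.57 against 21.6 and 20.3 CPM), Cxcr3 (2.23 and 2.86 against 17.9 and 12.2 CPM) and Cxcr6 (1.77 and 2.68 against 20.9 and 7.48 CPM). Ccr7 and Gpr183, which guide dendritic cells within lymphoid tissue, were not called (adjusted p = 0.31 and 0.26). Cx3cr1 was not called without CD11b+ library 2, nor was Cxcr6 without CD11b+ library 1.

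Co-signalling genes moved in both directions. Of 16 tested, 8 were higher and 6 lower, against 27.0% and 25.0% of all genes tested (median log2 fold change 0.36). This median was 0.19 without CD11b+ library 2. Cd40, which receives help from T cells, stood at 83.1 and 89.2 CPM in the CD11b+ libraries against 15.7 and 28.9 CPM in the CD11c+ libraries (log2 fold change 1.96, SE 0.27, adjusted p = 0.0022). Vsir, the checkpoint ligand VISTA, stood at 152 and 169.5 CPM in the CD11b+ libraries against 40.3 and 48.4 CPM in the CD11c+ libraries (log2 fold change 1.86, SE 0.17, adjusted p = 0.00064). Havcr2, the checkpoint receptor TIM-3, stood at 48.2 and 56.1 CPM in the CD11b+ libraries against 248 and 268 CPM in the CD11c+ libraries (log2 fold change -2.31, SE 0.12, adjusted p = 0.00017). Havcr2 and, by more, Btla (5.46 and 7.02 against 152 and 144 CPM) were high in both CD11c+ libraries. The costimulatory genes Cd80 and Cd86 differed less (223 and 224 against 110.5 and 139 CPM and 343 and 396 against 235 and 289 CPM), as did Cd274, which encodes PD-L1 (123 and 148 against 62.8 and 89.9 CPM). Ctla4, a T cell checkpoint, was at 18.8 and 17.1 against 95.4 and 60.1 CPM. Without CD11b+ library 2, 4 members were higher. Cd86 was not called without either CD11b+ library or CD11c+ library 1, nor was Cd274 without CD11b+ library 2.

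Of 15 tumour necrosis factor superfamily genes tested, 9 were higher and 2 lower (median log2 fold change 0.63). Tnf stood at 293 and 371 CPM in the CD11b+ libraries against 8.87 and 72.996 CPM in the CD11c+ libraries (log2 fold change 3.03, SE 0.87, adjusted p = 0.028), with CD11c+ library 2 several times above library 1. Tnfsf13, the plasma cell factor APRIL, stood at 22.3 and 21.3 CPM in the CD11b+ libraries against 1.52 and 1.93 CPM in the CD11c+ libraries (log2 fold change 3.67, SE 0.24, adjusted p = 0.00028). Tnfsf9, which encodes 4-1BB ligand, was at 55.6 and 54.4 against 10.01 and 12.5 CPM and Tnfsf12, which encodes TWEAK, at 29.6 and 32.04 against 3.45 and 6.21 CPM. Tnfsf13b, the B cell factor BAFF, was not called (61.7 and 61.3 against 44.2 and 54.1 CPM, adjusted p = 0.07). The 2 lower genes, Tnfsf8 and Tnfsf10, were under 6 CPM in all 4 libraries, and 1 of them was lower under 5 alternatives, among them leaving out CD11b+ library 2 or CD11c+ library 1. Without CD11b+ library 2, 5 members were higher. Tnf was not called without either CD11b+ library, nor was Tnfsf8 without CD11b+ library 2 or CD11c+ library 1. Tnfsf8 was not called with an effective length offset, by limma on log2(TPM + 1) and in the fit of the 4 libraries alone.

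Of 20 growth factor and receptor genes tested, 15 were higher and 4 lower (median log2 fold change 1.76). Flt3, the receptor of the growth factor that maintains dendritic cells, stood at 24.2 and 21.8 CPM in the CD11b+ libraries against 364 and 389.9 CPM in the CD11c+ libraries (log2 fold change -4.04, SE 0.29, adjusted p = 0.00035). Kit, the stem cell factor receptor, stood at 32.1 and 23.8 CPM in the CD11b+ libraries against 179.9 and 184 CPM in the CD11c+ libraries (log2 fold change -2.70, SE 0.28, adjusted p = 0.00087). Csf2rb, the shared beta chain for GM-CSF, interleukin 3 and interleukin 5, stood at 847 and 938 CPM in the CD11b+ libraries against 1433 and 1749 CPM in the CD11c+ libraries (log2 fold change -0.83, SE 0.14, adjusted p = 0.0042). These 3 receptors were alike in the 2 CD11c+ libraries. Its near relative Csf2rb2 went the other way (306 and 353 against 89.6 and 134 CPM), and reads may be divided between the 2 copies. Csf1, the macrophage growth factor, was at 51.1 and 45.5 against 6.79 and 7.42 CPM, Igf1 at 17.7 and 21.3 against 1.67 and 2.29 CPM, Hgf at 42.99 and 43.1 against 7.09 and 11.1 CPM and Csf3r, the receptor of the granulocyte factor, at 225 and 203 against 2.73 and 13.9 CPM. Flt3l, the ligand of Flt3, was not called (adjusted p = 0.46).

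Of 19 genes listed for retinoic acid and TGF-beta, which together favour regulatory T cells in the gut, 18 were tested, 10 were higher and 3 lower (median log2 fold change 0.83). Aldh1a2, the retinoic acid enzyme of gut dendritic cells, was not called (12.2 and 13.4 CPM in the CD11b+ libraries against 10.1 and 10.4 CPM in the CD11c+ libraries, adjusted p = 0.098). Tgfb1 stood at 372 and 397 CPM in the CD11b+ libraries against 138 and 166 CPM in the CD11c+ libraries (log2 fold change 1.34, SE 0.12, adjusted p = 0.00058). Dhrs3, a retinal reductase, stood at 60.1 and 61.4 CPM in the CD11b+ libraries against 14.5 and 17.9 CPM in the CD11c+ libraries (log2 fold change 1.91, SE 0.13, adjusted p = 0.00033). The groups did not overlap for either of these, as for 80.6% of all genes tested. Tgfbr2 was at 215 and 245 against 107 and 96.2 CPM and Rarg, a retinoic acid receptor, at 27.5 and 27.6 against 5.91 and 5.31 CPM. Ahr, the receptor for dietary and microbial indoles, was lower (214 and 223 against 324 and 359 CPM, log2 fold change -0.64). Ido1, which degrades tryptophan, was lower at under 4 CPM in all 4 libraries. Without CD11b+ library 2, 1 member was lower. Ido1 was not called without CD11b+ library 2.

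Of 17 Siglec and inhibitory receptor genes tested, 15 were higher and none lower (median log2 fold change 2.64). Lilrb4a stood at 1691 and 1831 CPM in the CD11b+ libraries against 201 and 309.5 CPM in the CD11c+ libraries (log2 fold change 2.79, SE 0.22, adjusted p = 0.00046), with the near-identical Lilr4b at 1797 and 1958 against 304 and 442 CPM. Pirb, a receptor for class I molecules, stood at 512 and 494 CPM in the CD11b+ libraries against 113 and 149.97 CPM in the CD11c+ libraries (log2 fold change 1.94, SE 0.15, adjusted p = 0.00041). Cd33 was at 137 and 162 against 6.03 and 26.2 CPM and Siglecf, of eosinophils, at 42.99 and 41.98 against 1.44 and 1.57 CPM. Cd200r1 was not called (9.15 and 8.74 against 20.5 and 8.204 CPM, adjusted p = 0.18), and 1 member was lower without CD11c+ library 2. Of 19 TREM, CD300 and Ms4a genes tested, 15 were higher and none lower (median log2 fold change 2.93), and 1 was lower without CD11c+ library 2 or in the fit on all 10 libraries. The median was 2.19 without CD11c+ library 1 and 5.13 without CD11c+ library 2. Tyrobp, the signalling adaptor DAP12, was at 482 and 483 against 165 and 185 CPM. Cd300lb was at 48.4 and 46.2 against 0.455 and 1.45 CPM, Ms4a6d at 121 and 128 against 2.92 and 17.1 CPM and Trem2, a lipid receptor of macrophages, at 18.8 and 20.3 against 0.265 and 2.78 CPM. Treml4 was not called at 11.9 and 11.4 against 10.9 and 11.5 CPM (adjusted p = 0.77).

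Of 21 matrix protease and inhibitor genes tested, 16 were higher and 1 lower (median log2 fold change 1.81). Mmp9, a gelatinase, stood at 181 and 189 CPM in the CD11b+ libraries against 3.15 and 7.12 CPM in the CD11c+ libraries (log2 fold change 5.21, SE 0.40, adjusted p = 0.00042). Plau, the urokinase plasminogen activator, stood at 444 and 549 CPM in the CD11b+ libraries against 14.1 and 111 CPM in the CD11c+ libraries (log2 fold change 2.99, SE 0.86, adjusted p = 0.029). Serpinb2, its inhibitor, stood at 269 and 278 CPM in the CD11b+ libraries against 0.455 and 0.965 CPM in the CD11c+ libraries (log2 fold change 8.67, SE 0.32, adjusted p = 0.00011). Serpinb2 was near 0 in both CD11c+ libraries, and Plau was several times higher in CD11c+ library 2 than in library 1. Mmp13, a collagenase, and Mmp12, the macrophage elastase, were not called (adjusted p = 0.25 and 0.25). Mmp13 stood at 293 and 477 against 11.3 and 209 CPM and Mmp12 at 102 and 154 against 14.3 and 97.2 CPM, with CD11c+ library 2 near the CD11b+ range. Both were called without CD11c+ library 2. Adamdec1, a protease gene of intestinal macrophages, was at 542 and 455 against 116 and 154 CPM. Adam19 was the 1 lower gene (113 and 117 against 209 and 243 CPM). Plau was not called without either CD11b+ library. Plau was not called with an effective length offset.

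Most lipid uptake and export genes were higher and most cholesterol synthesis genes lower. Of 18 lipid handling genes tested, 16 were higher and none lower (median log2 fold change 1.81). Abca1, the cholesterol exporter, stood at 589.7 and 699 CPM in the CD11b+ libraries against 20.9 and 131 CPM in the CD11c+ libraries (log2 fold change 3.09, SE 0.78, adjusted p = 0.018). Olr1, the receptor for oxidised low-density lipoprotein, stood at 23.3 and 27.5 CPM in the CD11b+ libraries against 1.33 and 1.75 CPM in the CD11c+ libraries (log2 fold change 4.06, SE 0.25, adjusted p = 0.00024). Lpl, lipoprotein lipase, stood at 79.1 and 66.4 CPM in the CD11b+ libraries against 7.13 and 12.4 CPM in the CD11c+ libraries (log2 fold change 2.91, SE 0.30, adjusted p = 0.00092). Olr1 and Lpl were low in both CD11c+ libraries, whereas Abca1 was several times higher in library 2 than in library 1. Of 17 cholesterol synthesis genes tested, 15 were lower and 1 higher, by smaller steps (median log2 fold change -0.63). Fdps, which makes farnesyl pyrophosphate, stood at 53.9 and 46.8 CPM in the CD11b+ libraries against 139.6 and 145 CPM in the CD11c+ libraries (log2 fold change -1.50, SE 0.11, adjusted p = 0.00041). Sqle, squalene epoxidase, stood at 33.5 and 35.8 CPM in the CD11b+ libraries against 72.8 and 79.3 CPM in the CD11c+ libraries (log2 fold change -1.13, SE 0.09, adjusted p = 0.00051). Srebf2, the factor that drives the pathway, was lower too (286 and 300.5 against 451 and 488 CPM, log2 fold change -0.68). Libraries of a group were close for these genes. Mvd was the 1 higher gene (37.1 and 32.7 against 22.7 and 21.96 CPM). Abca1 was not called without either CD11b+ library.

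Of 21 glycolysis genes listed, 20 were tested, 11 were higher and 4 lower (median log2 fold change 0.36). Over all genes tested, 27.0% were higher and 25.0% lower. Slc16a3, the lactate exporter MCT4, stood at 164 and 142 CPM in the CD11b+ libraries against 14.5 and 13.2 CPM in the CD11c+ libraries (log2 fold change 3.47, SE 0.12, adjusted p = 0.00011). Hk3, a hexokinase of myeloid cells, stood at 127 and 140.4 CPM in the CD11b+ libraries against 19.4 and 33.2 CPM in the CD11c+ libraries (log2 fold change 2.35, SE 0.27, adjusted p = 0.0013). Pfkfb3, which activates phosphofructokinase, was at 122 and 135 against 34.4 and 49.05 CPM. Enzymes of the core pathway differed less and in both directions, with Ldha at 319 and 329 against 473 and 480.4 CPM and Pgk1 at 207 and 194 against 349 and 339 CPM, both lower, and Eno1 at 423 and 394 against 274 and 278 CPM, higher. Pfkp, a phosphofructokinase, was lower by more (169.6 and 156 against 367 and 374 CPM, log2 fold change -1.18). Gapdh was not called (1041 and 964 against 1081 and 1113 CPM, adjusted p = 0.28).

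Of 16 genes tested for sensing or degrading extracellular nucleotides, 11 were higher and 4 lower (median log2 fold change 1.58). Over all genes tested, 27.0% were higher and 25.0% lower. P2rx7, the ATP-gated channel upstream of the inflammasome, stood at 150.03 and 156 CPM in the CD11b+ libraries against 31.1 and 27.3 CPM in the CD11c+ libraries (log2 fold change 2.38, SE 0.14, adjusted p = 0.00022). P2rx1 stood at 54.8 and 53.97 CPM in the CD11b+ libraries against 0.834 and 0.905 CPM in the CD11c+ libraries (log2 fold change 5.96, SE 0.23, adjusted p = 0.00011). P2ry10, a lysophosphatidylserine receptor, stood at 73.5 and 58.1 CPM in the CD11b+ libraries against 572 and 448 CPM in the CD11c+ libraries (log2 fold change -2.96, SE 0.22, adjusted p = 0.00037). P2ry10 was high in both CD11c+ libraries, and P2rx1 under 1 CPM in both. P2ry2, which senses ATP and UTP, was at 43.4 and 48.1 against 0.607 and 1.87 CPM. Entpd1, which encodes CD39 and degrades ATP, was higher (348 and 396 against 193 and 243 CPM), while Nt5e, which encodes CD73 and makes adenosine from AMP, was lower (4.61 and 4.97 against 44.1 and 14.4 CPM) and highest in CD11c+ library 1. Without either CD11b+ library, 2 members were lower. Entpd1 was not called without CD11b+ library 2, nor was Nt5e without either CD11b+ library.

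Of 17 receptors listed for metabolites and protons, 13 were tested. Of these, 5 were higher and 3 lower (median log2 fold change 0.25), against 27.0% and 25.0% of all genes tested. This median was 0.16 without CD11b+ library 2 and 0.12 without CD11c+ library 1. Ptafr, the receptor for platelet-activating factor, was higher (182 and 190.2 against 17.1 and 31.1 CPM), as were Gpr35 (80.5 and 73.5 against 13.9 and 20.1 CPM) and Hcar2, the receptor for butyrate and niacin (49.3 and 47.2 against 5.801 and 11.9 CPM). Ffar4, a receptor for long-chain fatty acids, was lower (3.31 and 3.26 against 13.5 and 13.9 CPM). Ffar2, a receptor for short-chain fatty acids, was not called (adjusted p = 0.81). Of 16 Notch pathway genes tested, 6 were higher and 4 lower (median log2 fold change 0.42), against the same 27.0% and 25.0%. Notch1 stood at 473 and 461 CPM in the CD11b+ libraries against 65.6 and 63.6 CPM in the CD11c+ libraries (log2 fold change 2.85, SE 0.12, adjusted p = 0.00012) and Notch2 at 436 and 397 CPM in the CD11b+ libraries against 201 and 246 CPM in the CD11c+ libraries (log2 fold change 0.90, SE 0.12, adjusted p = 0.0021). Both receptors were higher, Notch1 by more. Jag2, a ligand, stood at 35.9 and 43.7 CPM in the CD11b+ libraries against 139 and 169 CPM in the CD11c+ libraries (log2 fold change -1.95, SE 0.15, adjusted p = 0.00041), and Notch4 was at 2.85 and 1.599 against 15.96 and 17.1 CPM, both lower. Without CD11b+ library 1, or by limma on log2(TPM + 1), 2 Notch members were lower, and without CD11b+ library 2, 3 were higher.

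Most cell cycle genes were lower. Of 20 tested, 16 were lower and 0 higher (median log2 fold change -0.97). Top2a, a topoisomerase of dividing cells, stood at 72.4 and 78.1 CPM in the CD11b+ libraries against 200.4 and 221 CPM in the CD11c+ libraries (log2 fold change -1.48, SE 0.09, adjusted p = 0.00027). Mcm5, of the replicative helicase, stood at 39.9 and 41.6 CPM in the CD11b+ libraries against 114 and 112 CPM in the CD11c+ libraries (log2 fold change -1.47, SE 0.10, adjusted p = 0.00028). Rrm2, which supplies deoxynucleotides, was at 11.2 and 8.79 against 28.3 and 38.6 CPM and Pcna at 227 and 238 against 334 and 326 CPM. Mki67, the proliferation antigen, was not called (365 and 380.2 CPM in the CD11b+ libraries against 380.2 and 453 CPM in the CD11c+ libraries, adjusted p = 0.26), nor was Plk1 (adjusted p = 0.43). Transcripts of DNA replication and of mitosis were thus detected in both populations.

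Of 19 interferon response genes tested, 14 were higher and 4 lower (median log2 fold change 1.34). Oas1a, an antiviral synthetase, stood at 49.7 and 52.998 CPM in the CD11b+ libraries against 6.48 and 8.57 CPM in the CD11c+ libraries (log2 fold change 2.78, SE 0.16, adjusted p = 0.00023). Isg15 stood at 52.4 and 55.8 CPM in the CD11b+ libraries against 12.2 and 20.6 CPM in the CD11c+ libraries (log2 fold change 1.73, SE 0.24, adjusted p = 0.0024). The signalling factor Stat2 went the other way (47.7 and 50.3 against 110.2 and 114 CPM), together with Mx1 and Cxcl9. Of 19 cytoskeleton genes, 4 were higher and 4 lower, against 27.0% and 25.0% of all genes tested. Tmsb10, an actin-sequestering peptide, stood at 294 and 281 CPM in the CD11b+ libraries against 1063 and 1016 CPM in the CD11c+ libraries (log2 fold change -1.85, SE 0.23, adjusted p = 0.0017), and Marcksl1, a membrane-linked actin regulator, at 536 and 593 CPM in the CD11b+ libraries against 37.2 and 61.1 CPM in the CD11c+ libraries (log2 fold change 3.52, SE 0.24, adjusted p = 0.00033). They moved in opposite directions, and Vim and Lcp1 were not called (adjusted p = 0.81 and 0.81). Of 19 early response and heat shock genes tested, which also react to tissue digestion, 12 were higher and 2 lower (median log2 fold change 0.73). Fos was at 873 and 851 against 486 and 550.1 CPM, Dusp1 at 872 and 985 against 176 and 262 CPM and Hspa1a, with a near-identical copy, at 747 and 645 against 275 and 338 CPM, while Hsph1 was lower (162 and 162 against 345 and 287 CPM). How far handling of the tissue contributed was not tested. Leaving out any 1 library of either group, or fitting all 10 libraries, left 1 lower member of this list. Mx1 was not called with an effective length offset and by limma on log2(TPM + 1), nor was Hsph1 in the fit of all 10 libraries.

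**Figure D5:**
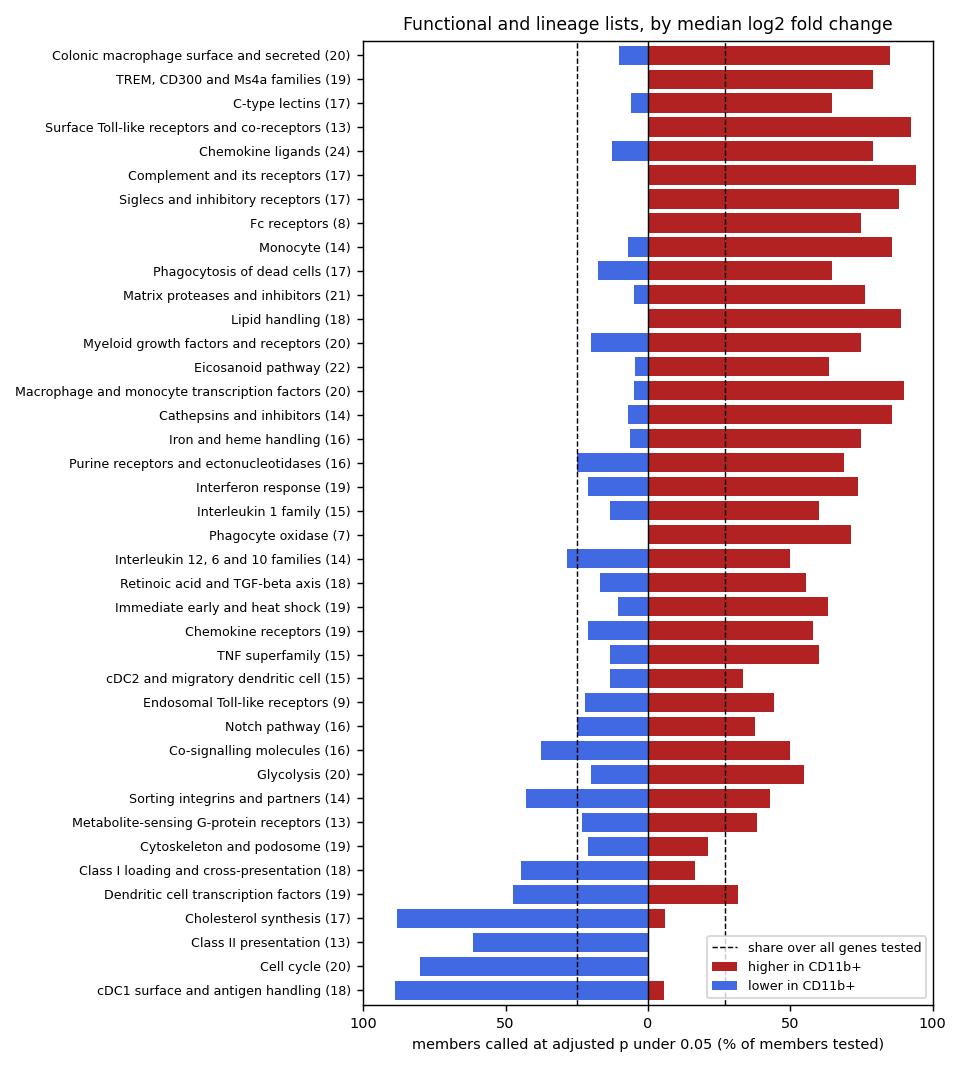
Share of the tested members of each of 40 lists called higher (red, right) or lower (blue, left) in CD11b+ cells, ordered by median log2 fold change, with the number tested in brackets and dashed lines at the shares over all genes tested (27.0% and 25.0%). The cDC1, cell cycle, class II and cholesterol synthesis lists lie at the bottom and the macrophage, TREM and lectin lists at the top.

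Most granulocyte markers that could be tested were higher. Of 18 neutrophil genes listed, 15 were tested and 14 of them were higher. Members with 0 counts in CD11c+ cells, among them S100a8, Ngp, Camp and Mmp8, passed the count filter only through the other groups. For them higher was the only direction possible, so this count was partly set by the filter. Retnlg stood at 288 and 246 CPM in the CD11b+ libraries against 0.0758 and 0.181 CPM in the CD11c+ libraries (2266 times, 95% counting interval 971 to 6981). S100a9, a calprotectin chain, stood at 67.2 and 47.5 CPM in the CD11b+ libraries against 0 and 0.0603 CPM in the CD11c+ libraries (2400.1 times, 95% counting interval 430.2 to 94853), and S100a8, the other chain, at 20.5 and 20.1 CPM in the CD11b+ libraries against 0 and 0 CPM in the CD11c+ libraries (at least 289.98-fold higher, taking 3 counts over the 2 CD11c+ libraries as the floor). Both chains were all but undetected in CD11c+ cells. Ngp, a granule protein, was at 3.85 and 17.5 against 0 and 0 CPM (at least 168-fold higher) and Camp, a cathelicidin, at 1.31 and 5.25 against 0 and 0 CPM (at least 51.1-fold higher), each with CD11b+ library 2 several times above library 1. Mpo, Elane and Ly6g of this list had too few counts to be tested. The list summed to 1608 and 1611 CPM in the CD11b+ libraries against 683 and 945 CPM in the CD11c+ libraries and 1633 and 1693 CPM in CD11b+CD11c+ cells, and most of the CD11c+ reads in this sum came from Il1r2, which was not called. The stricter count filter tested fewer genes and left 7 higher, and 1 was lower without CD11c+ library 1. Ngp was not called by DESeq2.

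Of 13 eosinophil genes listed, 9 were tested, 7 were higher and none lower. Members near 0 in CD11c+ cells, such as Alox15, passed the count filter only through the other groups, which favours higher calls. The list summed to 907 and 858 CPM in the CD11b+ libraries against 33.1 and 30.04 CPM in the CD11c+ libraries. In CD11b+CD11c+ cells the sums were 156 and 184 CPM. Besides Ccr3, Alox15, Serpinb2 and Siglecf, given above, Adgre4 stood at 183 and 159.7 CPM in the CD11b+ libraries against 1.099 and 2.896 CPM in the CD11c+ libraries (log2 fold change 6.50, SE 0.39, adjusted p = 0.00024) and Il5ra, the interleukin 5 receptor, at 8.31 and 6.57 CPM in the CD11b+ libraries against 1.36 and 2.53 CPM in the CD11c+ libraries (log2 fold change 1.96, SE 0.34, adjusted p = 0.005). None of the granule genes Epx, Prg3, Ear1, Ear6 and Prg2 was called higher, and Ear2 is not reported here. Epx, Prg3, Ear1 and Ear6 had too few counts to be tested, and Prg2, the major basic protein, was at 5.23 and 7.42 against 8.91 and 13.9 CPM and not called (adjusted p = 0.056). The surface and enzyme genes named here were thus higher in CD11b+ cells, while the granule genes with values or too few counts were low in both groups. The part of eosinophils in the genes of the largest rise was not tested. A member was called lower under 5 alternatives, 2 of which left out a CD11c+ library. Of 8 mast cell and basophil genes tested, 2 were higher and 3 lower, against 27.0% and 25.0% of all genes tested. Hdc, histidine decarboxylase, was at 152 and 105 against 3.68 and 4.102 CPM and higher, while the mast cell protease gene Cpa3 was under 2 CPM in all 4 libraries. Leaving out 1 library moved these counts to as few as 1 in each direction.

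Most T cell and NK genes were lower. Of 18 T cell genes tested, 17 were lower and 0 higher (median log2 fold change -4.23). The median was -3.28 without CD11c+ library 1 and -4.70 without CD11c+ library 2. Cd3g stood at 2.92 and 1.71 CPM in the CD11b+ libraries against 117 and 30.5 CPM in the CD11c+ libraries (log2 fold change -5.03, SE 0.95, adjusted p = 0.0067). Lck stood at 3.85 and 5.31 CPM in the CD11b+ libraries against 134 and 52.8 CPM in the CD11c+ libraries (log2 fold change -4.34, SE 0.70, adjusted p = 0.0038). CD11c+ library 1 held several times more than library 2, and both exceeded the CD11b+ libraries. Cd4 was the exception (92.97 and 126 against 8.64 and 50.01 CPM, adjusted p = 0.07), and is also expressed by gut macrophages. It was called higher under 5 alternatives, among them the replicate block and the fits without either CD11c+ library. Of 18 NK and innate lymphoid genes, 13 were lower and 1 higher (median log2 fold change -3.16). Gzma, a granzyme, stood at 14.2 and 11.9 CPM in the CD11b+ libraries against 599 and 96.8 CPM in the CD11c+ libraries (log2 fold change -4.74, SE 1.25, adjusted p = 0.021), Klrk1, the receptor NKG2D, at 20.5 and 19.02 against 206 and 161 CPM and Il2rb at 19.8 and 18.7 against 353 and 168 CPM. Without CD11b+ library 2, 8 were lower, and the 1 higher gene, Il7r (59.1 and 84.9 against 37.4 and 48.5 CPM), was not called without CD11b+ library 2 or CD11c+ library 1. Cd3g was not called without CD11b+ library 2, nor was Gzma without either CD11b+ library or CD11c+ library 1, nor was Il7r without CD11b+ library 2 or CD11c+ library 1. Gzma was not called by limma on log2(TPM + 1), nor was Il7r with an effective length offset.

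Plasma cell transcripts were present in all 4 libraries. Of 12 tested, 7 were lower and 1 higher (median log2 fold change -0.76). This median was -1.14 without CD11b+ library 1 and -0.48 without CD11c+ library 2. Igha, the IgA heavy chain, stood at 13716 and 11063 CPM in the CD11b+ libraries against 25482 and 34200.0 CPM in the CD11c+ libraries (log2 fold change -1.27, SE 0.22, adjusted p = 0.0048), and Jchain, which joins IgA dimers, at 2029.6 and 1586 CPM in the CD11b+ libraries against 3829 and 4856 CPM in the CD11c+ libraries (log2 fold change -1.26, SE 0.20, adjusted p = 0.0034). Prdm1, also a myeloid gene, was the 1 higher member (169 and 211 against 25.7 and 56.4 CPM). The number lower was between 3 and 4 without CD11b+ library 1, CD11b+ library 2 or CD11c+ library 2. The 15 B cell genes tested held 3 higher and 3 lower ones, against 27.0% and 25.0% of all genes tested. Ms4a1, which encodes CD20, was under 5 CPM in all 4 libraries. Bank1, an adaptor of B and myeloid cells, stood at 78.4 and 78.2 CPM in the CD11b+ libraries against 2.54 and 3.98 CPM in the CD11c+ libraries (log2 fold change 4.61, SE 0.21, adjusted p = 0.00014). Leaving out CD11b+ library 2 left 1 B cell member lower. Of 11 plasmacytoid dendritic cell genes, 3 were higher and 5 lower, against the same 27.0% and 25.0%. Siglech was not called (14.4 and 16.96 against 5.08 and 11.8 CPM, adjusted p = 0.13). In the 1-library-out fits the plasmacytoid counts fell as low as 2 lower (without CD11b+ library 1) and 1 higher (without CD11b+ library 2).

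The sums of epithelial and stromal markers in both CD11b+ libraries lay above those in both CD11c+ libraries. Of 15 epithelial genes tested, 9 were higher and none lower (median log2 fold change 1.06), with sums of 1173 and 780.1 CPM in the CD11b+ libraries against 449.7 and 537 CPM in the CD11c+ libraries. Without CD11c+ library 1, 5 were higher. Krt8, a keratin, stood at 361 and 254 CPM in the CD11b+ libraries against 117 and 162 CPM in the CD11c+ libraries (log2 fold change 1.14, SE 0.22, adjusted p = 0.0074). Of 14 stromal and endothelial genes, 11 were higher and none lower (median log2 fold change 1.44). The list summed to 4580.4 and 4105 CPM in the CD11b+ libraries against 1328 and 1542 CPM in the CD11c+ libraries. In CD11b+CD11c+ cells the stromal sums were 1059 and 920 CPM. Under 5 alternatives, among them leaving out CD11c+ library 1, 1 stromal gene was lower. Col3a1, a fibrillar collagen, stood at 2427 and 2191 CPM in the CD11b+ libraries against 695 and 775 CPM in the CD11c+ libraries (log2 fold change 1.65, SE 0.14, adjusted p = 0.00049). The CD11b+ libraries were above both CD11c+ libraries, as they were for Mmp2 (129.9 and 117 against 29.5 and 46.5 CPM) and Cxcl12 (31.9 and 28.3 against 7.85 and 9.05 CPM), which fibroblasts also make, and the part of stromal cells in those genes was not tested. Of 8 erythroid and platelet genes, 7 were higher, and 3 without CD11b+ library 2.

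Among the 10 genes with the largest ratio between the 2 CD11c+ libraries, at 20 CPM or more and after adding 0.5 CPM to both, were H2-M2, Mmp13, Il10, Apoe, C1qa, Ms4a7, Cxcl2, C1qc and Ms4a4a, and each was higher in library 2. H2-M2, a class I-like gene, stood at 48.6 and 70.7 CPM in the CD11b+ libraries against 2.54 and 62.7 CPM in the CD11c+ libraries (adjusted p = 0.59), and CD11c+ library 2 lay within the CD11b+ range. Without that library its log2 fold change was 4.54 and it was called higher. Ms4a7 stood at 202 and 259.6 CPM in the CD11b+ libraries against 5.004 and 56.2 CPM in the CD11c+ libraries (log2 fold change 2.93, SE 0.96, adjusted p = 0.043). Of the 10, H2-M2, Mmp13, Il10 and Apoe were not called. The CD11b+ libraries differed from each other by much smaller ratios. Among the 10 genes with the largest were Hbb-bs, Car1, Pck1, Sel1l3, Gbp2b, Cldn7, Apol7c, Eps8l3 and Muc2, which include haemoglobin and epithelial genes, with Hbb-bs at 9.92 and 26.2 against 5.42 and 2.41 CPM and Muc2, the goblet cell mucin, at 275 and 165 against 98.04 and 117 CPM. C1qa, Ms4a7, Cxcl2, C1qc and Ms4a4a were not called without either CD11b+ library.

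Genes of at least 100 CPM in both groups with the smallest change were Slk, Clic4, Raly, Ddx54, Arfgef1, Syncrip, Nme2 and Spag9, which serve general functions such as RNA processing and vesicle traffic. Spag9, a scaffold of kinase signalling, stood at 611 and 665 CPM in the CD11b+ libraries against 612 and 662 CPM in the CD11c+ libraries (the 95% interval of the log2 fold change ran from -0.25 to 0.25). Raly, an RNA-binding protein, stood at 189 and 206 CPM in the CD11b+ libraries against 200.02 and 195 CPM in the CD11c+ libraries. Per length, predicted genes with Gm symbols made up much of the 10 highest in both groups and are not described here. Tmsb4x, which sequesters actin monomers, led both groups with 31553 TPM in CD11b+ and 41432 TPM in CD11c+ cells. Cd74 (8379 TPM in CD11b+ and 10257 TPM in CD11c+ cells) and Klf10, a factor induced by TGF-beta (12806 TPM in CD11b+ and 7444 TPM in CD11c+ cells), were among the 10 highest of both. Hspa5, the endoplasmic reticulum chaperone (8519 TPM in CD11b+ and 5484 TPM in CD11c+ cells), and Apoe (7899.6 TPM in CD11b+ and 1093 TPM in CD11c+ cells) were among the 10 highest only in CD11b+ cells, and Tmsb10 (6882 TPM in CD11b+ and 24025 TPM in CD11c+ cells), Cst3 and Rps29 only in CD11c+ cells, as positions in these lists rather than tests.

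Levels in CD11b+CD11c+ cells place the 2 populations, with no test made here. Macrophage genes summed to 16051 and 22423 CPM, within or above the CD11b+ range, and Apoe alone gave 6673 and 10522 CPM of these sums. Csf1r was at 2103 and 2764 CPM and C1qb at 1231 and 1701 CPM. The cDC1 sum was 2449.6 and 1922 CPM, between the other groups, and Cst3 was at 1792 and 1202 CPM. Granulocyte genes of the largest rise were well under their CD11b+ levels, with Rab44 at 40.9 and 53.5 CPM, Alox15 at 19.9 and 31.3 CPM and Ccr3 at 6.78 and 13.9 CPM.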

How the data were processed

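Polyadenylated RNA of sorted colonic cells was extracted with TRIzol and made into directional libraries with NEBNext kits, per the labels' protocols. The deposited files list, for each transcript, the estimated counts of kallisto without scaling for depth, as the column names in the file headers show. Their TPM values, also deposited by the authors, rest on effective lengths. The tools, per the submitters' processing notes, were kallisto 0.44.0 and sleuth (no version), with build mm10. The sources used here do not give the index release, the strand setting or the sort beyond its markers. Lengths were multiples of 3 for 88.95% of transcripts and are therefore mostly coding lengths.

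Of the transcripts, 98.48% matched a GENCODE M21 gene. Adding up the estimated counts within a gene and rounding gave 22607 genes. Near-identical genes divide their reads, so values of the H2, Klra, Retnl, Ear, Hba, Hbb, Mcpt, Lilr, Hspa1 and immunoglobulin genes are uncertain. The 6 colonic subset libraries were fitted together in edgeR 4.0.16 (R 4.3.3; filterByExpr, TMM scaling, quasi-likelihood F test, group as the only term), with Benjamini-Hochberg adjustment over the 14225 genes that passed the filter. Standard errors come from the fold change and its F statistic. Ratios of genes with 10 or fewer counts in the lower and at least 100 in the higher group carry exact 95% counting intervals, and where that group had none the floor was 3 counts over the group. These cover counting error only.

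The populations compared and the 51 gene lists (842 entries) were chosen with earlier results of these data known. Named genes are the integrins, the 12 largest rises and 12 largest falls (at least 20 CPM in the higher group, no overlap, no immunoglobulin or T cell receptor segments, no unnamed genes), up to 10 members a list by mean CPM, the 10 largest ratios between libraries of each group, the 8 smallest changes at 100 CPM or more and the 10 highest TPM in each group. Not all of these are described, further list members are, and some genes counted in the lists are not reported here. The 14 alternatives used other filters, scalings, sets of libraries, DESeq2 1.42.0, an offset for effective length, and limma 3.58.1 on log2(TPM + 1). The tests were checked on simulated counts with few changed genes and the same spread in every group, unlike these data. Error rates in the present data were not checked by it.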

Additional observations from a re-analysis of the deposited data

How the results depend on the processing

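The 14 alternatives called between 4372 and 7465 genes, against 7392. Leaving out 1 library gave 4372 to 6895 calls, 2413 to 3574 genes higher and 1959 to 3321 lower, with 4372 calls without CD11b+ library 1 and 4473 without CD11b+ library 2. By limma on log2(TPM + 1), 2177 genes were lower, and 778 at least 2-fold, and the cause was not tested. The fold change of Runx1 reversed to -0.32 with an offset for effective length and to -0.24 by limma on log2(TPM + 1), and the cause was not tested. No other called gene of the lists changed direction under an alternative that could test it. A fit with the replicate number as a block called 7316 genes, of which 7043 were also called without it, all with the same sign. Same-numbered CD11b+ and CD11c+ libraries did not deviate together (correlation -0.064). The correlation was -0.012 for CD11b+ with CD11b+CD11c+ libraries and 0.24 for CD11c+ with CD11b+CD11c+ libraries, and the labels do not say what the numbers mean, so the libraries were taken to share only a number. Among listed and named genes this block ended 8 calls and added 27.

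With 2 libraries a group, differences that rest on CD11c+ library 2, above all of macrophage genes, have wide errors. Genes with few counts, such as Mpo, Elane, Epx and Prg3, did not pass the count filter and were not tested in the fit reported here.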
